A study of Canis lupus familiaris with 22 samples.

Results

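IgE receptor genes and genes of the basophils, mast cells and eosinophils that act downstream of IgE were measured in the blood of dogs with canine atopic dermatitis (cAD). The members were *FCER1A*, *MS4A2*, *FCER1G*, *FCER2*, *SYK*, *HDC*, *KIT*, *CCR3*, *IL5RA* and *GATA2*, chosen by name, and each was read from every transcript probe to which the scanner files gave its gene name. These 10 genes, of 14227 gene names on the array, had 16 of its 43603 probes. Blood came from 8 healthy dogs (ctrl) and from 7 dogs with cAD before allergen-specific immunotherapy (ASIT) and again after 6 months of it. The dogs were privately owned adults of several breeds, those with cAD had reacted in serological and intradermal allergy tests, and ASIT was given as subcutaneous allergen extracts chosen from each dog's skin test. The labels give the material as whole blood, whereas the paper's methods name nuclear cells of peripheral blood. On each of the 22 arrays the dog's RNA carried Cy5 and a pool of RNA from 13 other healthy dogs, the common reference, carried Cy3.

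FcεRI, the high-affinity IgE receptor of basophils and mast cells, is built from an α chain that binds IgE (*FCER1A*), a β chain that strengthens the signal (*MS4A2*) and a γ chain that carries activating motifs (*FCER1G*) and also serves other receptors of myeloid cells. When an allergen links receptor-bound IgE, the kinase SYK is recruited to the γ chain and the cells release mediators, among them histamine, which the enzyme encoded by *HDC* makes from histidine. Basophils and eosinophils circulate as small fractions of the white blood cells, while mature mast cells stay in the tissues.

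Each value is a log2 ratio of Cy5 to Cy3, so that 0 is the level of the common reference. The scanner software marks a spot as well above background in each dye, and this share differed between the groups. In Cy5 it had a median of 87.8% of probes in ctrl (range 83.7% to 92.3%), 62.5% before ASIT (53.3% to 87.5%) and 61.6% after ASIT (57.2% to 81.6%). The control dogs were hybridized on slides 1 and 2 alone and read in a scan of their own, so a difference from ctrl cannot be told apart from one of slide or scan. Slides 3 and 4 held arrays from both time points. Slide 5 held only arrays before ASIT (dogs 5, 6 and 7). Slide 6 held only arrays after ASIT (dogs 4, 5, 6 and 7) and was read in a scan of its own. For dogs 4 to 7 a difference between the time points cannot be told apart from one of slide or scan. A fall in a blood transcript can reflect fewer cells of a type or less RNA per cell, which cannot be told apart in these samples. With 7 or 8 arrays in a group, their number limits the precision of each value.

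The array of dog 6 before ASIT and that of dog 3 after ASIT were singled out after seeing the data, as those with the highest log2 ratio of their group in *FCER1A* and in *CPA3*, the gene of mast cell carboxypeptidase. For *FCER1A* they read 1.91 and 3.12, with 1.29 and 0.31 next in their groups, and for *CPA3* 5.95 and 5.81, with 1.25 and 3.82 next. In both genes both dogs lay lower at their other time point. In *MS4A2* dog 6 was the highest of its group at 0.87, while dog 3 at 1.45 had dog 4 beside it at 1.31. On the other *MS4A2* probe dog 4 was the higher after ASIT, at 1.34 against 1.30 in dog 3. Each array held the highest value of its group in 4 of the 9 member genes tested (44.4%) and in 6 of 17 further basophil and mast cell genes (35.3%), compared with 12.9% of the 38287 probes tested for dog 6 and 11.4% for dog 3. Since *FCER1A* and *CPA3* are high on these arrays by the choice of arrays, the counts without them were 3 of 8 (37.5%) and 5 of 16 (31.2%) on each. Besides *CPA3*, *HRH4* (0.80 and 0.64) and *SLC18A2* (2.39 and 2.54) were among the 6 on both arrays. The counts include *GATA2*, with the reference at background on both arrays, and for dog 3 *HDC*, at background in both dyes, and *IL13*, with Cy5 at background. *FCER1G* was the highest of its group on neither array. In dog 3 after ASIT *KIT* and *ENPP3* were the lowest of their group, at -2.27 and -1.73, both with Cy5 at background. Values without these arrays are given for most of the members.

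Of the 16 member probes, 9 (56.2%) had Cy5 well above background on all 22 arrays, compared with 47.9% of all probes on the array. They belonged to 6 of the 10 genes, *FCER1A*, *MS4A2*, *FCER1G*, *SYK*, *CCR3* and *IL5RA*. Blood therefore gave a signal for each chain of FcεRI, for its kinase and for both eosinophil receptors in every dog. In ctrl alone, 12 of the 16 probes (75%) were above background on all arrays, among them that of *GATA2* and 1 of *KIT*, compared with 78.9% of all probes. The probe of *GATA2* was above background on 8 of 8 arrays in ctrl, 3 of 7 before and 3 of 7 after ASIT. That of *KIT* chosen to represent the gene was so on 8, 2 and 2 arrays. The *HDC* probe reached this level on 5, 1 and 4 arrays, and the *FCER2* probe on 3, 0 and 0. *FCER2* and 1 of the 3 *KIT* probes were above background on fewer than 7 arrays and were not tested, which left 14 member probes. Of these, the *GATA2* probe and that chosen for *KIT* reached 7 arrays through ctrl alone. Their differences from ctrl rest on readings of cAD patients mostly at background.

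**Figure D1:**
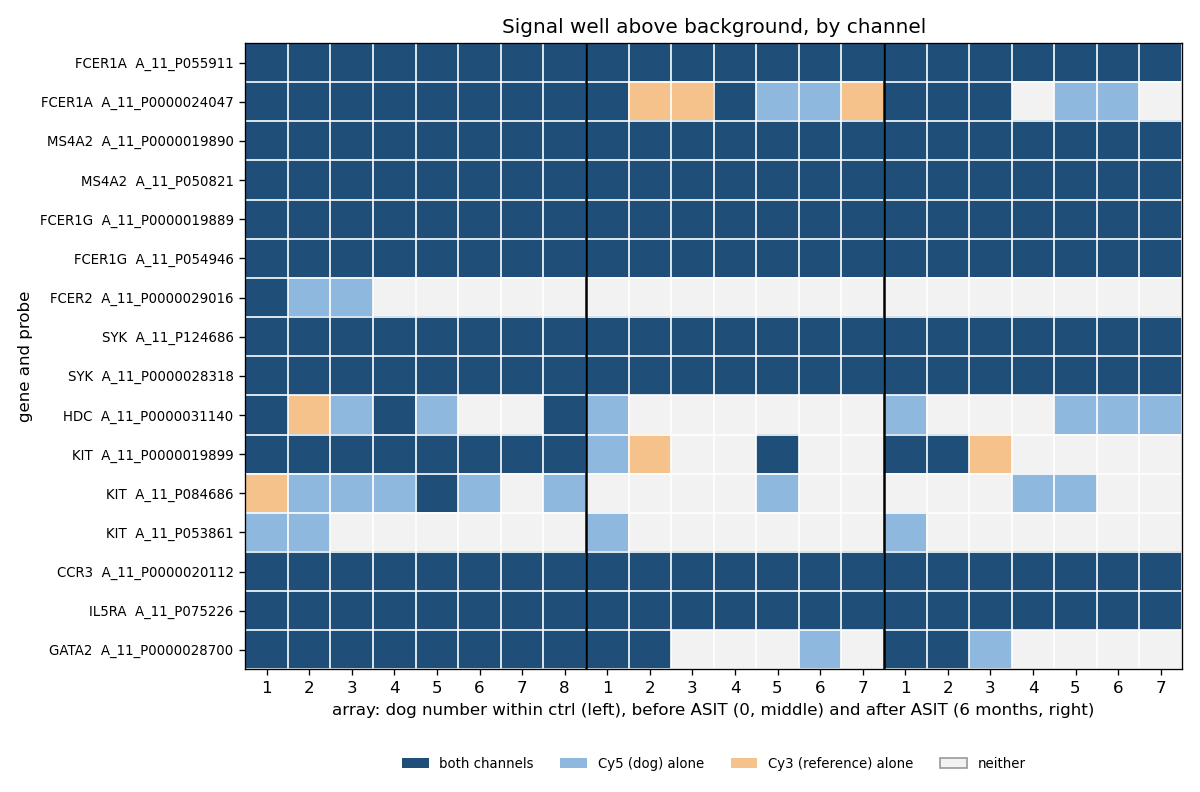
Signal flags of the 16 member probes (rows) on the 22 arrays (columns, by dog number, with vertical lines between ctrl, before ASIT and after ASIT). Dark blue marks both dyes well above background, light blue Cy5 (the dog) alone, orange Cy3 (the common reference) alone and grey neither, and the 9 rows that are dark blue throughout belong to *FCER1A*, *MS4A2*, *FCER1G*, *SYK*, *CCR3* and *IL5RA*.

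The comparison 0 vs. ctrl sets cAD patients before ASIT against healthy dogs. In it, limma called 0 of the 14 member probes at an adjusted p under 0.05 and 16 of all 38287 tested probes (0.0418%). Without adjustment, 1 member probe lay under 0.05, a lower *KIT*, compared with 11.7% of all probes, made up of 3.81% higher and 7.93% lower before ASIT. The log2 ratios of the groups overlapped for every member probe tested and failed to overlap for 0.217% of all probes. The methods name a one-way test followed by Tukey's test for pairs of groups, whose p already allows for all the pairs. By Tukey's test, 0 member probes had a p under 0.05 before adjustment over probes. Over the 9 tested genes the median difference was 0.13, with 4 lower before ASIT, against -0.02 and 52.4% lower over all tested probes.

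For 6 months vs. ctrl, limma called 0 member probes and 0 of all probes (0%). *IL5RA*, higher after ASIT, was the 1 member probe under an unadjusted 0.05, where 7.2% of all probes lay, 4.08% higher and 3.12% lower. No member probe separated the groups, which 0.11% of all probes did. Tukey's test again gave 0 member probes under 0.05 before adjustment over probes. The median difference of the 9 genes was 0.37, with 3 lower after ASIT, against -0.04 and 56.4% lower over all probes. The comparisons with ctrl share the 8 control arrays.

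The comparison 0 vs. 6 months sets the time points of the same dogs against each other. The limma fit took their arrays as unpaired, and it called 0 member probes and 0 of all probes (0%). With the dog as a block, which pairs the arrays, 0 of the 14 member probes were called too. Tukey's test gave 0 member probes under 0.05 before adjustment over probes, and limma as reported gave 0 under an unadjusted 0.05. Of all probes, 5.96% were under an unadjusted 0.05, with 2.15% higher and 3.81% lower before ASIT. The groups overlapped for all member probes tested, and were separate for 0.0183% of all probes. The median difference of the 9 genes was -0.22, with 8 of the 9 lower before ASIT, against -0.0092 and 51.4% of all probes. Among the 8, *SYK*, *IL5RA* and *GATA2* differed by only -0.02, -0.02 and -0.03. *GATA2*, *HDC* and *KIT* were at background on most arrays of cAD patients. With the slide as a fixed block, *FCER1G*, *KIT* and *IL5RA* turned higher before ASIT, and *CCR3* stayed higher. Over the 3 groups together, limma called 0 member probes and 0 of all probes (0%), and 1 member probe (*KIT*) was under an unadjusted 0.05, as 9.7% of all probes were. The methods' tests, rerun here, called 0 of all tested probes in each comparison and over the 3 groups. Over the 3 groups the one-way test had 0 member probes under an unadjusted 0.05. The paper reported differentially expressed transcripts in each comparison by these tests, after its own filters on flags and variation. The rerun used another filter, so it does not repeat the paper's own analysis.

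The arrays of the dogs with cAD varied among themselves more than those of the control dogs did. The part of slide, scan and readings at background in this was not tested. The standard deviation before ASIT exceeded that in ctrl for 10 of the 14 member probes (71.4%) and for 79.6% of all tested probes. After ASIT it did so for 9 (64.3%) and for 71.5%. The median standard deviation of the member probes was 0.36 in ctrl, 0.77 before ASIT and 0.91 after ASIT, and that of all tested probes was 0.30, 0.52 and 0.44. The member medians were 0.71 before ASIT and 0.57 after ASIT without the 2 arrays singled out, and those of all probes 0.52 and 0.42, while the counts of member probes stayed at 10 and 9. The 9 tested genes had a mean log2 ratio of -0.54 to 0.69 per array before ASIT, while after ASIT it was -0.16 to 0.72, with dog 6 and dog 3 the highest of their groups, *GATA2* and *HDC* included, and of -0.23 to 0.14 in ctrl. The place of these 2 arrays is partly fixed by their choice, since the mean includes *FCER1A*.

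*FCER1A* encodes the chain that holds IgE on the cell surface. Its brighter probe, A_11_P055911, covers positions 22683547 to 22683606 of chromosome 38 in the canFam3.1 build. The lowest, median and highest log2 ratios were -0.52, -0.0059 and 0.40 in ctrl, -0.67, -0.41 and 1.91 before ASIT, and -0.61, 0.30 and 3.12 after ASIT. Dogs 5 and 6 before ASIT, at 1.29 and 1.91, and dog 3 after ASIT lay above every control dog, while the other arrays of cAD patients lay within the control range or just below it. Control dogs had a mean of -0.05 ± 0.33 (SD, n = 8), against 0.12 ± 1.05 (SD, n = 7) at the first time point and 0.48 ± 1.22 (SD, n = 7) at the second. The latter pair was -0.18 ± 0.75 and 0.04 ± 0.40 (SD, n = 6) without the 2 arrays singled out. The differences stayed within this spread, at 0.17 (SE 0.44, limma adjusted p = 0.915) for 0 vs. ctrl, 0.53 (SE 0.44, adjusted p = 0.778) for 6 months vs. ctrl and -0.36 (SE 0.46, adjusted p = 0.934) for 0 vs. 6 months, where 4 of the 7 patients had the lower value before ASIT.

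The sizes of the *FCER1A* differences moved with the arrays singled out. Without dog 6 before ASIT, 0 vs. ctrl turned to -0.13. Without dog 3 after ASIT, 6 months vs. ctrl was 0.09 and 0 vs. 6 months turned to 0.08. Without both arrays 0 vs. 6 months was -0.22 and kept its direction. Dog 3 went from -0.52 to 3.12, and dog 6 went the other way, from 1.91 to 0.31. On slide 3 the difference 0 vs. 6 months was -0.53, and on slide 4, where dog 3 gave the single array after ASIT, it was -3.43. With the slide as a fixed block the difference was -1.69 (adjusted p = 1). The dimmer *FCER1A* probe, A_11_P0000024047 on chromosome 38 from 22683497 to 22683556, followed a similar but not the same order of arrays, with a Pearson r of 0.959, a Spearman rho of 0.831 and an r of 0.867 without the 2 arrays farthest from the median, over 22 arrays of which 14 are pairs from 7 dogs. Its Cy5 was above background on 8, 4 and 5 arrays of the 3 groups and the reference on 8, 5 and 3. It read 3.46 in dog 3 after ASIT, with both dyes above background, while its 2.61 in dog 6 before ASIT is a ratio to a reference at background.

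**Figure D2:**
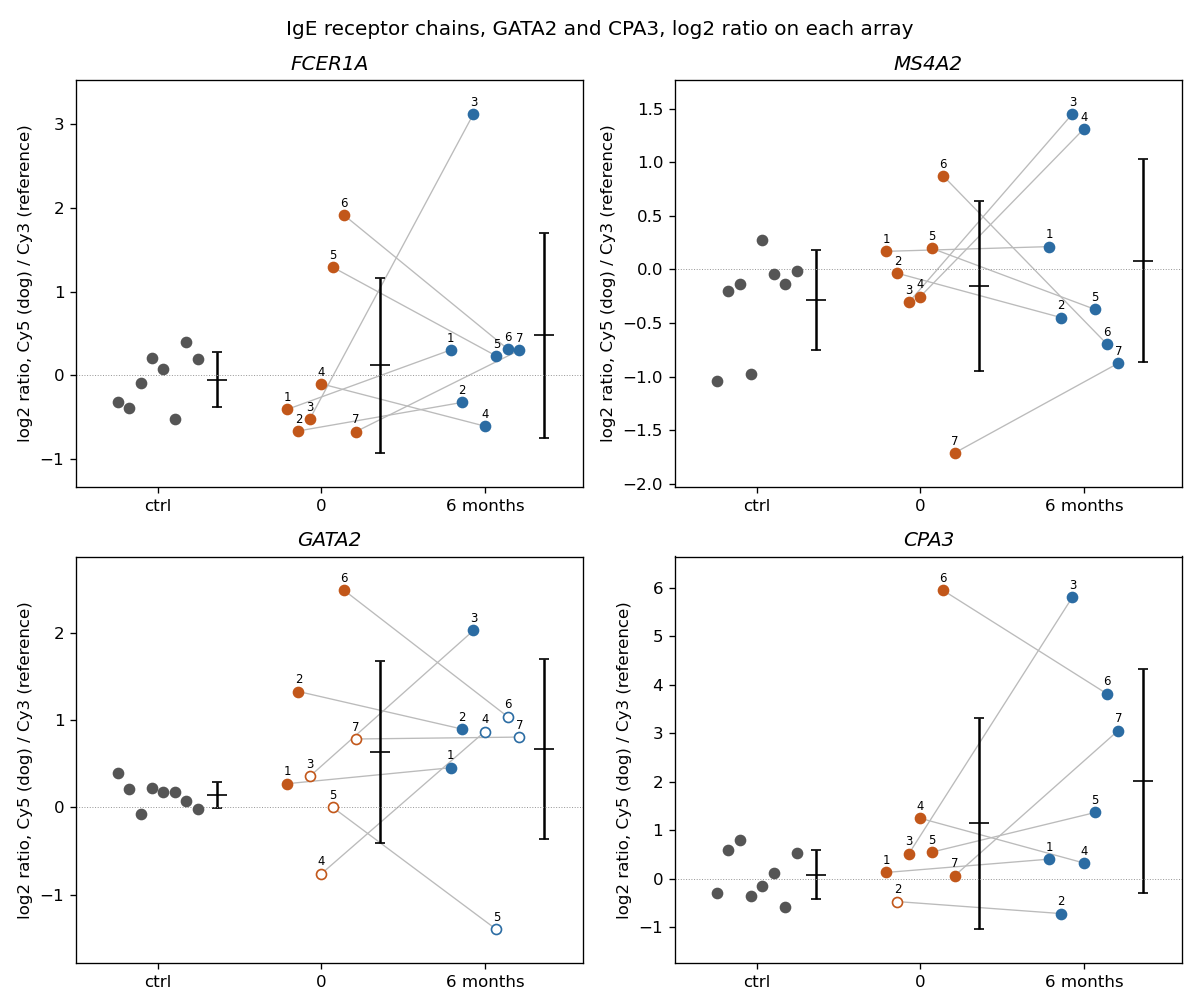
Log2 ratio of Cy5 (dog) to Cy3 (common reference) on each array for *FCER1A*, *MS4A2*, *GATA2* and *CPA3*, in ctrl (grey), before ASIT (0, orange) and after 6 months (blue), with dog numbers, thin lines joining the arrays of a dog, open circles where Cy5 was not well above background, and bars for the mean ± SD (n = 8, 7 and 7). The array of dog 6 is the highest of its group before ASIT and that of dog 3 the highest of its group after ASIT in each of these genes, in *GATA2* with the reference at background and in *MS4A2* with dog 4 close to dog 3.

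*MS4A2* encodes the β chain, which amplifies FcεRI signals and is made mainly by basophils and mast cells. The probe A_11_P0000019890 on chromosome 21, from 50456555 to 50456616, had both dyes above background on all 22 arrays. Its log2 ratios had a lowest, median and highest value of -1.04, -0.13 and 0.28 in ctrl, -1.71, -0.04 and 0.87 before ASIT, and -0.87, -0.37 and 1.45 after ASIT. Dog 6 before ASIT and dogs 3 and 4 after ASIT (1.45 and 1.31) lay above the control dogs, dog 7 before ASIT lay below them, and the remaining arrays overlapped with ctrl. The differences were 0.13 (SE 0.36, limma adjusted p = 0.923) for 0 vs. ctrl, 0.37 (SE 0.36, adjusted p = 0.822) for 6 months vs. ctrl and -0.24 (SE 0.37, adjusted p = 0.938) for 0 vs. 6 months, where 4 of the 7 patients had the lower value before ASIT. Without the 2 arrays singled out they were -0.04, 0.14 and -0.18. Another array moved them as much. Without dog 7 before ASIT 0 vs. ctrl was 0.39 and 0 vs. 6 months turned to 0.02. With all arrays, 0 vs. 6 months was 0.19 on slide 3 and -1.73 on slide 4, and it was -0.58 with the slide as a fixed block (adjusted p = 1).

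The other *MS4A2* probe, A_11_P050821 on chromosome 21 from 50456178 to 50456237, was printed as 5 replicate spots on each array. The median standard deviation among its 5 spots was 0.08 on the log2 scale, which covers spot noise within an array alone, while the standard deviation among the dogs of a group was 0.44 to 1.02. It shares no run of bases longer than 6 with the first probe, and yet both ranked the arrays alike (Pearson r = 0.949, Spearman rho = 0.861, r = 0.930 without the 2 arrays farthest from the median, over 22 arrays). Its sequence is shown as the FcεRI chain read on replicate spots, in lower case throughout since no stretch of it is singled out.
MS4A2 A_11_P050821: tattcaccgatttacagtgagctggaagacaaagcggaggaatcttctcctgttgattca

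*FCER1G* encodes the γ chain, which myeloid and natural killer cells also use for their IgG receptors. The probe A_11_P0000019889 on chromosome 38, from 21268002 to 21268061, was above background in both dyes on all 22 arrays. The lowest, median and highest log2 ratios were -0.37, 0.26 and 0.59 in ctrl, -0.80, 0.29 and 1.13 before ASIT, and 0.05, 0.32 and 0.50 after ASIT. Before ASIT the dogs split, with dogs 1, 2, 3 and 6 at 0.29, 1.13, 0.95 and 0.51 and dogs 4, 5 and 7 at -0.80, -0.76 and -0.66, below every control dog, while dogs 2 and 3 lay above every control dog. The neutrophil receptor genes *CSF3R* (0.67, 0.61, 0.53 and 0.21 against -0.65, -0.07 and -0.26) and *CXCR2* (0.93, 1.39, 1.24 and 0.48 against -0.73, -0.31 and 0.26) parted the same dogs, as did the mean of 30 FcεRI signalling genes. The other neutrophil genes, *S100A8*, *S100A9*, *S100A12* and *MPO*, did not, nor did the mean of 6 neutrophil genes. In *S100A8* dog 5 read 0.867, against -0.156 and -0.245 in dogs 1 and 6. The part of neutrophils in the split was not tested. After ASIT all dogs lay within the range of ctrl, and their standard deviation was 0.14, compared with 0.83 before ASIT and 0.34 in ctrl. The difference in spread was not tested. The differences of the means were -0.10 (SE 0.26, limma adjusted p = 0.914) for 0 vs. ctrl, 0.12 (SE 0.26, adjusted p = 0.934) for 6 months vs. ctrl and -0.22 (SE 0.27, adjusted p = 0.934) for 0 vs. 6 months, where 3 of the 7 patients had the lower value before ASIT. The last was 0.44 on slide 3, -0.37 on slide 4 and 0.11 with the slide as a fixed block (adjusted p = 1). Without the 2 arrays singled out the differences were -0.17, 0.09 and -0.27. With each array left out in turn 0 vs. ctrl ran from -0.28 without dog 2 before ASIT to 0.05 without dog 4 before ASIT, and 0 vs. 6 months from -0.39 to -0.07.

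The split of *FCER1G* before ASIT was the same on its other probe, A_11_P054946, with -0.76, -0.64 and -0.39 in dogs 4, 5 and 7 and 0.30, 1.12, 0.90 and 0.43 in dogs 1, 2, 3 and 6. This probe spans positions 21268012 to 21268190 of chromosome 38, 179 positions for its 60 bases, so its match to the genome is interrupted. The readings of the pair correlated with a Pearson r of 0.968 and a Spearman rho of 0.933 (r = 0.947 without the 2 arrays farthest from the median) over 22 arrays. They are not independent in sequence, and both are shown for that reason, with the 50 bases they share in capitals.
FCER1G A_11_P0000019889: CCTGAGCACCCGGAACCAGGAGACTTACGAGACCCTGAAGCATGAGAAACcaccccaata
FCER1G A_11_P054946: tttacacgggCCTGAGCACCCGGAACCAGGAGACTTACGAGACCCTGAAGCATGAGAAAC

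*FCER2* encodes CD23, the low-affinity IgE receptor, which B cells carry. Its probe, on chromosome 20 from 52452403 to 52452462, had Cy5 above background in 3 control dogs and in 0 cAD patients at either time. Its log2 ratios ran from -0.73 to 0.72 in ctrl, from -1.08 to 0.24 before ASIT and from -1.41 to 1.19 after ASIT, and the groups overlapped. With Cy5 at background in all cAD patients and in 5 of the 8 control dogs, no fold change is given. Markers of B cells were measured beside it. Of 8 genes, 4 had Cy5 above background on all 22 arrays, and the mean of the 8 log2 ratios per array had a median of -0.11 in ctrl, -0.19 before ASIT and -0.43 after ASIT. The part of B cells in the *FCER2* readings was not tested.

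*SYK* encodes the kinase that starts the signal inside the cell, in B cells and myeloid cells as well as in basophils. Its brighter probe, A_11_P124686, reaches from 95912204 to 95922915 on chromosome 1 in an interrupted match. The log2 ratios had a lowest, median and highest value of -0.34, 0.17 and 0.83 in ctrl, -0.17, 0.22 and 0.81 before ASIT, and -0.29, 0.38 and 0.87 after ASIT. The 3 groups covered nearly the same range. The differences were -0.03 (SE 0.22, limma adjusted p = 0.979) for 0 vs. ctrl, -0.0064 (SE 0.22, adjusted p = 0.997) for 6 months vs. ctrl and -0.02 (SE 0.23, adjusted p = 0.990) for 0 vs. 6 months. The other probe, A_11_P0000028318 on chromosome 1 from 95936473 to 95936532, gave -0.22, 0.03 and -0.25 in the same order (adjusted p = 0.761, 0.984 and 0.934). For the brighter probe 0 vs. 6 months was 0.13 on slide 3, -0.35 on slide 4 and -0.06 with the slide as a fixed block (adjusted p = 1). Leaving out 1 array at a time moved its differences between -0.12 and 0.09.

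Further genes of FcεRI signalling, from the kinases LYN, FYN and BTK to phospholipase Cγ, protein kinase C and the adaptors that link them, gave 30 genes with a tested probe out of 34 listed. Of the 30, 28 had Cy5 above background on all 22 arrays. In each comparison limma called 0 of them. Under an unadjusted 0.05 lay 1 in 0 vs. ctrl, 2 in 6 months vs. ctrl, while 0 vs. 6 months had 1, compared with 11.7%, 7.2% and 5.96% of all tested probes. Their median difference in 0 vs. ctrl was -0.10, with 27 of the 30 lower before ASIT, compared with -0.02 and 52.4% over all tested probes. *RAC2*, a GTPase of blood cells, had the smallest p there among the probes chosen to represent the genes, with a difference of -0.30 (SE 0.14, adjusted p = 0.368) that was -0.71 in the Cy5 channel alone (adjusted p = 0.0192, up to 1 in other settings), ahead of *PRKCB* at -0.29 (adjusted p = 0.484) and *PIK3CG* at -0.27 (adjusted p = 0.504). Another probe of the listed gene *LCP2* had a smaller p in 0 vs. ctrl, with -0.47 (limma adjusted p = 0.301). In 6 months vs. ctrl, where 18 of 30 were lower and the median was -0.04, *RASGRP1* differed by -0.49 (adjusted p = 0.681), *FYN* by -0.44 (adjusted p = 0.681) and *BTK* by 0.42 (adjusted p = 0.681). In the Cy5 channel alone *BTK* turned to -0.16, and after normexp with loess *RASGRP1* was -0.25 and *FYN* -0.24. For 0 vs. 6 months the median was -0.08, with 22 of 30 lower before ASIT, and *BTK* differed by -0.47 (SE 0.21, adjusted p = 0.780), *CBL* by -0.28 (adjusted p = 0.933) and *TEC* by 0.31 (adjusted p = 0.934). Without dog 3 before ASIT, whose array read -1.48, the difference of *BTK* was -0.24. The other *BTK* probe, above background on all 22 arrays, gave -0.22 in 0 vs. 6 months and 0.10 in 6 months vs. ctrl. *CBL* turned to 0.09 in the Cy5 channel alone, and with the slide as a fixed block *TEC* turned to -0.15.

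*HDC* encodes histidine decarboxylase, which makes histamine in basophils and mast cells. Its probe, on chromosome 30 from 16201636 to 16201695, had the common reference above background on 4 control arrays and on 0 arrays of cAD patients. Its log2 ratios had a lowest, median and highest value of -0.69, -0.26 and 0.17 in ctrl, -1.90, 0 and 1.65 before ASIT, and -1.36, 0.26 and 2.40 after ASIT. After ASIT, Cy5 was above background in dogs 1, 5, 6 and 7, with ratios of 0.25, 0.26, 1.35 and 1.79 to a reference at background. Their processed Cy5 levels of 6.06, 5.81, 6.12 and 6.56 lay below that of control dog 1, at 6.71. The other control dogs read 5.34 to 6.08, below dogs 6 and 7 after ASIT. The reading of 2.40 in dog 3 was at background in both dyes. The groups overlapped in each comparison. The differences were 0.30 (SE 0.45, limma adjusted p = 0.846) for 0 vs. ctrl, 0.91 (SE 0.45, adjusted p = 0.681) for 6 months vs. ctrl and -0.61 (SE 0.47, adjusted p = 0.934) for 0 vs. 6 months, where 6 of the 7 patients had the lower value before ASIT. In 6 months vs. ctrl the Cy5 channel alone gave 1.49 (adjusted p = 0.0214), and normexp with loess gave 0.11, with adjusted p values from 0.0214 to 1 over all the settings tried. On slide 3 the difference 0 vs. 6 months was -1.09, on slide 4 -1.60 and with the slide as a fixed block -1.29 (adjusted p = 1). After normexp with loess it was -0.02. Without the 2 arrays singled out the differences were 0.32, 0.62 and -0.31. Single arrays moved 0 vs. ctrl further, to 0.04 without dog 3 before ASIT and to 0.63 without dog 2 before ASIT.

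Histamine receptors and the enzymes that break histamine down had 5 genes tested of 5 listed, 1 of them under both its names, *AOC1* and *ABP1*, and 4 of the 5 had Cy5 above background on all 22 arrays. Of these 5, limma called 0 in each comparison, and 0 lay under an unadjusted 0.05, where all tested probes had 11.7%, 7.2% and 5.96%. *AOC1*, which encodes diamine oxidase, differed by -0.25 (adjusted p = 0.497) in 0 vs. ctrl and by -0.17 (adjusted p = 0.934) in 0 vs. 6 months, and in the Cy5 channel alone these were -0.62 (adjusted p = 0.0364, up to 1 in other settings) and -0.50. *HRH3* differed by 0.36 (adjusted p = 0.705) in 0 vs. ctrl and by 0.60 (adjusted p = 0.681) in 6 months vs. ctrl, which were 0.11 and 0.13 after normexp with loess. *HRH2*, the receptor through which histamine restrains basophils, differed by 0.43 (adjusted p = 0.900) in 0 vs. 6 months, by 0.22 (adjusted p = 0.780) in 0 vs. ctrl and by -0.22 (adjusted p = 0.840) in 6 months vs. ctrl. In the Cy5 channel alone its differences from ctrl were -1.57 (adjusted p = 0.0179) before ASIT, where the direction turned, and -1.41 (adjusted p = 0.0328) after ASIT, with adjusted p values up to 1 in other settings. Its difference 0 vs. 6 months turned to -0.16 in that channel. *HNMT*, the enzyme that methylates histamine, differed by 0.38 (adjusted p = 0.934) in 0 vs. 6 months and by -0.28 (adjusted p = 0.822) in 6 months vs. ctrl, which were 0.05 and 0.05 after normexp with loess, the latter with its direction turned.

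*KIT* encodes the receptor for stem cell factor, which mast cells need to survive and which blood progenitors carry. The probe with Cy5 above background on most arrays, A_11_P0000019899, reaches from 47188619 to 47189734 on chromosome 13 in an interrupted match. Its log2 ratios had a lowest, median and highest value of -0.49, -0.10 and 0.52 in ctrl, -1.64, -0.99 and 0.19 before ASIT, and -2.27, -0.39 and 0.22 after ASIT. Before ASIT, 6 of the 7 dogs lay below every control dog and dog 1 lay within the control range, and 5 of those 6 had no Cy5 signal above background. The probe passed the filter of 7 arrays through ctrl alone, so no fall is concluded from its differences from ctrl. The difference was -0.83 (SE 0.31, limma adjusted p = 0.259) for 0 vs. ctrl, -0.55 (SE 0.31, adjusted p = 0.685) for 6 months vs. ctrl and -0.28 (SE 0.32, adjusted p = 0.934) for 0 vs. 6 months, where 4 of the 7 patients had the lower value before ASIT. In 0 vs. ctrl it was -0.04 after normexp with loess (adjusted p = 0.843) and 0.05 in the Cy5 channel alone (adjusted p = 0.927). In 6 months vs. ctrl it was -0.06 after normexp with loess. Without the 2 arrays singled out the differences were -0.76, -0.28 and -0.48. With all arrays, 0 vs. 6 months was 0.0074 on slide 3, 0.77 on slide 4 and with the slide as a fixed block 0.31 (adjusted p = 1), so its direction turned within slides. Another *KIT* probe, A_11_P084686 on chromosome 13 from 47187922 to 47188094, gave 0.10 (adjusted p = 0.943) in 0 vs. ctrl and 0.88 in the Cy5 channel alone (adjusted p = 0.0464, up to 1 in other settings), and its readings followed those of the first with a Pearson r of -0.135 and a Spearman rho of -0.149 over 22 arrays (r = -0.049 without the 2 farthest). The probe A_11_P053861, from 47161014 to 47175088, had a ratio of exactly 0 on 11 arrays. The *KIT* probes thus gave no common direction.

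*KITLG*, which encodes stem cell factor, had the smallest adjusted p among the ligands of these cells. Its probe A_11_P171903 had log2 ratios with a lowest, median and highest value of -0.29, 0.03 and 0.59 in ctrl, -1.70, -1.37 and -0.16 before ASIT, and -1.48, -0.02 and 0.52 after ASIT. Before ASIT, 6 of the 7 dogs lay below every control dog, and Cy5 was above background on 8, 1 and 2 arrays of the 3 groups. The probe thus passed the filter of 7 arrays through ctrl alone. Its differences rest on readings of cAD patients mostly at background, so no fall is concluded from them. The difference was -1.16 (SE 0.25, limma adjusted p = 0.089) for 0 vs. ctrl, -0.26 (SE 0.25, adjusted p = 0.822) for 6 months vs. ctrl and -0.90 (SE 0.26, adjusted p = 0.374) for 0 vs. 6 months, where 6 of the 7 patients had the lower value before ASIT. For KITLG A_11_P171903, 0 vs. ctrl, the adjusted p was 0.0136 without dog 1 before ASIT, 0.0445 without dog 2 before ASIT, 0.0237 without dog 3 after ASIT and 0.0369 without the 2 arrays singled out, and over all the settings tried it ranged from 0.0136 to 1. After normexp with loess the difference was -0.07, and in the Cy5 channel alone -0.29. For KITLG A_11_P171903, 0 vs. 6 months, the difference was -1.11 (adjusted p = 0.0377) without dog 3 after ASIT and -1.15 (adjusted p = 0.049) without both of those arrays, against -0.05 after normexp with loess and -0.42 with the slide as a fixed block (adjusted p = 1 for both). For KITLG A_11_P171903, 6 months vs. ctrl, it was -0.04 without dog 3 after ASIT and turned to 0.05 in the Cy5 channel alone. A dimmer *KITLG* probe gave 0.14 (adjusted p = 0.861) in 0 vs. ctrl and -0.06 (adjusted p = 0.974) in 0 vs. 6 months.

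The other ligands were mostly at background in cAD patients. Of 13 tested genes for cytokines and chemokines that act on basophils, mast cells or eosinophils, 3 had Cy5 above background on all 22 arrays. The interleukins *IL5* and *IL3* were above background on 8 of 8 arrays in ctrl, on 1 and 2 of 7 before ASIT and on 3 and 2 after ASIT, and the eotaxin genes *CCL24* and *CCL26* on 8 in ctrl, 4 and 1 before ASIT and 2 and 2 after ASIT. No probe carried the names *CCL11* or *TSLP*. In 0 vs. ctrl limma called 0 of the 13, and 3 lay under an unadjusted 0.05, all lower before ASIT, compared with 11.7% of all tested probes, with 7.93% lower. Besides *KITLG* these were *CCL28*, at -0.96 (adjusted p = 0.259), and *IL33*, at -0.62 (adjusted p = 0.366). After normexp with loess these were -0.15 and -0.05, and in the Cy5 channel alone -2.32 (adjusted p = 0.0368) and -1.68 (adjusted p = 0.0119), with adjusted p values up to 1 in other settings. *KITLG*, *CCL28* and *IL33* passed the filter of 7 arrays through ctrl alone. Before ASIT their Cy5 was above background on 1, 2 and 1 of 7 arrays, so no fall is concluded from them. In 6 months vs. ctrl 0 were called and 0 lay under an unadjusted 0.05 (7.2% of all probes), with *CCL28* at -0.70 (adjusted p = 0.681), *CCL8* at 0.77 (adjusted p = 0.685) and *IL3* at -0.61 (adjusted p = 0.742). Without dog 4 after ASIT, whose array read -2.63 for *IL3* and -0.90 for *CCL8*, these last were 1.08 for *CCL8* and -0.22 for *IL3*. In the Cy5 channel alone *CCL28* was -3.25 (adjusted p = 0.0221) and *IL3* -1.43 (adjusted p = 0.018), while after normexp with loess they were 0.0017 and -0.12 and *CCL8* was 0.22, with adjusted p values up to 1 in other settings. In 0 vs. 6 months 0 were called and 1 lay under 0.05 (5.96% of all probes), *KITLG*, followed by *IL33* at -0.52 (adjusted p = 0.888) and *IL5* at -0.35 (adjusted p = 0.934). For the dogs with both arrays on 1 slide *IL33* turned to 0.20, and after normexp with loess *IL5* was -0.04. The median differences of the list were -0.10, -0.14 and -0.19 in these comparisons.

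*CCR3* encodes the eotaxin receptor, which draws eosinophils and basophils into tissue. Its probe on chromosome 20, from 42383145 to 42383204, had both dyes above background on all 22 arrays. The lowest, median and highest log2 ratios were -1.05, -0.06 and 0.84 in ctrl, -0.90, -0.23 and 0.69 before ASIT, and -2.67, 0.00012 and 0.18 after ASIT. Dogs 3 and 4 were the lowest before ASIT, both at -0.90, and after ASIT they lay below every control dog, at -1.54 and -2.67, while the other 5 dogs lay between -0.35 and 0.18. The differences were -0.04 (SE 0.39, limma adjusted p = 0.984) for 0 vs. ctrl, -0.45 (SE 0.39, adjusted p = 0.789) for 6 months vs. ctrl and 0.41 (SE 0.40, adjusted p = 0.934) for 0 vs. 6 months, where 5 of the 7 patients had the higher value before ASIT. Without dog 4 after ASIT the comparisons that use the array gave -0.10 and 0.07, and without the 2 arrays singled out the differences were -0.18, -0.29 and 0.11. Leaving out 1 array at a time moved 0 vs. ctrl between -0.18 and 0.11. On slide 3 the difference 0 vs. 6 months was 0.02, on slide 4 0.64 and with the slide as a fixed block 0.27 (adjusted p = 1).

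*IL5RA* encodes the α chain of the interleukin 5 receptor, the growth and survival receptor of eosinophils, which basophils carry too. Its probe on chromosome 20, from 14339650 to 14339709, was above background in both dyes on all 22 arrays. The lowest, median and highest log2 ratios were -0.52, -0.14 and 0.67 in ctrl, -0.52, 0.50 and 1.48 before ASIT, and -0.31, 0.47 and 1.12 after ASIT. Dog 2 before ASIT and dog 4 after ASIT lay above the control dogs, and the other arrays of cAD patients lay within the control range, with the medians of both time points above that of ctrl. Control dogs had a mean of -0.11 ± 0.38 (SD, n = 8), against 0.39 ± 0.63 (SD, n = 7) at the first time point and 0.41 ± 0.44 (SD, n = 7) at the second. The differences were 0.49 (SE 0.25, limma adjusted p = 0.445) for 0 vs. ctrl and 0.52 (SE 0.25, adjusted p = 0.681) for 6 months vs. ctrl, and these share the control arrays. For 0 vs. 6 months the difference was -0.02 (SE 0.25, adjusted p = 0.989), where 5 of the 7 patients had the lower value before ASIT, 0.81 on slide 3, -0.66 on slide 4 and 0.22 with the slide as a fixed block (adjusted p = 1). After normexp with loess the differences from ctrl were 0.20 (adjusted p = 0.674) and 0.21 (adjusted p = 1). With 1 array left out at a time they ran from 0.31 to 0.64 and from 0.40 to 0.64, and 0 vs. 6 months from -0.21 to 0.13.

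**Figure D3:**
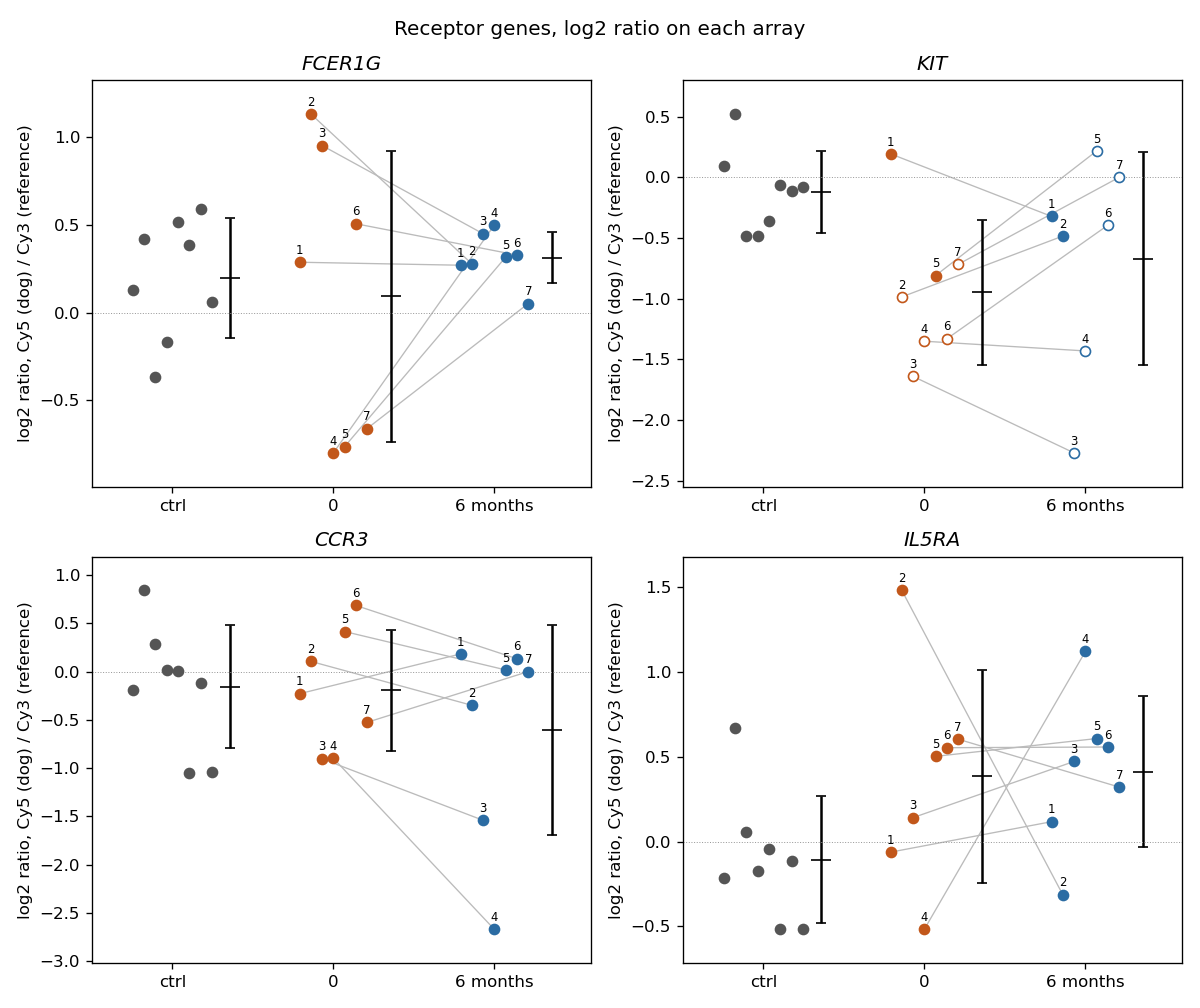
Log2 ratio of Cy5 (dog) to Cy3 (common reference) on each array for *FCER1G*, *KIT*, *CCR3* and *IL5RA*, in ctrl (grey), before ASIT (0, orange) and after 6 months (blue), with dog numbers, thin lines joining the arrays of a dog, open circles where Cy5 was not well above background, and bars for the mean ± SD (n = 8, 7 and 7). In *FCER1G* dogs 4, 5 and 7 lie below the control dogs before ASIT and within their range after it, and in *CCR3* dogs 3 and 4 lie lowest at both times.

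Other eosinophil genes could be read only in part, since no probe carried the names of the granule proteins *EPX*, *PRG2*, *PRG3*, *RNASE2* and *RNASE3*, nor of *SIGLEC8*. Of 14 eosinophil genes listed, 1 of them under both its names, *EMR1* and *ADGRE1*, 6 had a tested probe, and 4 of the 6 were above background on all 22 arrays, namely *EMR1*, *LGALS12* and, named after their values were seen, *ADORA3* and *ALOX15*. The mean of the 6 log2 ratios per array had a lowest, median and highest value of 0.08, 0.24 and 0.65 in ctrl, -0.34, 0.49 and 0.77 before ASIT, and 0.08, 0.56 and 0.85 after ASIT. The groups overlapped, with dog 7 lowest before ASIT and dog 3 highest at both times. In each comparison limma called 0 of the 6, with 0, 1 and 0 under an unadjusted 0.05, beside 11.7%, 7.2% and 5.96% of all tested probes. The 1 was *SMPD3* in 6 months vs. ctrl, at 0.57 (SE 0.24, adjusted p = 0.681), and it was above background on 8, 3 and 3 arrays. In 0 vs. ctrl it differed by 0.46 (adjusted p = 0.457) and in 0 vs. 6 months by -0.11 (adjusted p = 0.951). Without dog 6 after ASIT, whose array read 2.16, the difference 6 months vs. ctrl was 0.33 and 0 vs. 6 months turned to 0.13. In the Cy5 channel alone *SMPD3* turned to -0.16 in 6 months vs. ctrl and to -0.60 in 0 vs. ctrl. *CEBPE*, a transcription factor of granulocyte maturation, differed by 0.45 in 0 vs. ctrl (adjusted p = 0.71), by 0.68 in 6 months vs. ctrl (adjusted p = 0.686) and by -0.23 in 0 vs. 6 months (adjusted p = 0.940). Its differences from ctrl passed the threshold in the Cy5 channel alone (adjusted p = 0.0429 and 0.0325, up to 1 in other settings) and were 0.02 and -0.01 after normexp with loess. With 1 array left out at a time its 0 vs. ctrl ran from 0.105 to 0.74. Without dog 4 before ASIT its 0 vs. 6 months turned to 0.06. *EMR1* differed by -0.28 (adjusted p = 0.729) and -0.24 (adjusted p = 0.836) from ctrl, and *LGALS12* by 0.06 (adjusted p = 0.964) in 0 vs. 6 months. These turned to 0.37, 0.08 and -0.42 in the Cy5 channel alone.

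*GATA2* encodes the transcription factor on which basophils and mast cells, and blood stem cells, depend. Its probe lies on chromosome 20 from 2474075 to 2474134. The lowest, median and highest log2 ratios were -0.07, 0.18 and 0.40 in ctrl, -0.76, 0.36 and 2.49 before ASIT, and -1.40, 0.87 and 2.03 after ASIT. Cy5 was above background in dogs 1, 2 and 6 before ASIT, at 0.27, 1.33 and 2.49, and in dogs 1, 2 and 3 after ASIT, at 0.46, 0.90 and 2.03, with the reference at background on the arrays of dog 6 before ASIT and dog 3 after ASIT. Of the ratios with both dyes above background, those of dog 2 at both times and of dog 1 after ASIT lay above every control dog. The differences were 0.49 (SE 0.40, limma adjusted p = 0.688) for 0 vs. ctrl, 0.53 (SE 0.40, adjusted p = 0.751) for 6 months vs. ctrl and -0.03 (SE 0.41, adjusted p = 0.990) for 0 vs. 6 months, where 4 of the 7 patients had the lower value before ASIT. Without the 2 arrays singled out they were 0.18, 0.30 and -0.12, and with 1 array left out at a time 0 vs. 6 months ran from -0.38 to 0.20. The direction in 0 vs. ctrl turned to -1.34 in the Cy5 channel alone (adjusted p = 0.0278, up to 1 in other settings), where Cy5 was at background in 4 of the 7 dogs, and to -0.02 after normexp with loess, which keeps the reference. In 6 months vs. ctrl the direction turned too, to -0.81 in the Cy5 channel alone. On slide 3 the difference 0 vs. 6 months was 0.12, on slide 4 -2.23 and with the slide as a fixed block -0.82 (adjusted p = 1). The *GATA2* sequence is shown, in lower case throughout, as the single reading of this factor on the array.
GATA2 A_11_P0000028700: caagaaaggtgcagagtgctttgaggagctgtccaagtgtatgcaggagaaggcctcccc

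*CPA3* encodes carboxypeptidase A3, a protease of mast cell and basophil granules. Its probe, on chromosome 23 from 43747856 to 43747915, was above background on 8 of 8 arrays in ctrl, 6 of 7 before and 7 of 7 after ASIT. The lowest, median and highest log2 ratios were -0.57, -0.0079 and 0.79 in ctrl, -0.47, 0.52 and 5.95 before ASIT, and -0.72, 1.37 and 5.81 after ASIT. Before ASIT dog 6 lay far above the rest, with dog 4 next at 1.25. After ASIT dogs 3, 6, 7 and 5 lay above every control dog, at 5.81, 3.82, 3.06 and 1.37. The differences were 1.06 (SE 0.85, limma adjusted p = 0.687) for 0 vs. ctrl, 1.92 (SE 0.85, adjusted p = 0.681) for 6 months vs. ctrl and -0.87 (SE 0.88, adjusted p = 0.934) for 0 vs. 6 months. Without the 2 arrays singled out they were 0.26, 1.29 and -1.04, and with 1 array left out at a time 0 vs. 6 months ran from -1.67 to -0.24. With the slide as a fixed block, 0 vs. 6 months was -1.98 (adjusted p = 1), while after normexp with loess it turned to 0.0175.

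The high readings of *CPA3* did not all survive another background correction. After normexp with loess, dog 6 before ASIT and dog 3 after ASIT still stood at 3.88 and 3.86, while dogs 6 and 7 after ASIT read 0.08 and 0.13, and the difference 6 months vs. ctrl was 0.59 (adjusted p = 1). The same arrays kept *FCER1A* at 1.63 and 2.63 and *MS4A2* at 0.80 and 1.34 under that correction, and held the highest Cy5 level of their group for *FCER1A* and *CPA3* when the reference was left out. For *MS4A2* so did dog 6, while dog 4 after ASIT lay beside dog 3. Their Cy5 levels were 11.68 and 11.74 after scaling between arrays, and 11.78 and 11.51 in the processed signals, where dog 4 was the higher. Dogs 6 and 7 after ASIT then held the next highest Cy5 levels of *CPA3* in their group. After scaling between arrays these were 9.995 and 9.366, above every control dog, of which the highest read 6.751. For *GATA2*, dog 6 before ASIT read 0.20 after normexp with loess, the highest of its group, and dog 3 after ASIT 0.30, next to the highest and above every control dog. Their Cy5 levels of *GATA2* ranked 3 in both groups and lay below every control dog. *SLC18A2*, the vesicle transporter that loads histamine into granules, was named after its values were seen. It read 2.39 in dog 6 before ASIT and 2.54 in dog 3 after ASIT, both with Cy5 above background, whereas the next highest in those groups were 0.02 and 1.34, both at background. After normexp with loess the *SLC18A2* readings were 0.58 and 0.51, still the highest of their groups. The sequences of these 2 probes are shown in lower case throughout, as those with which a granule signal in the blood of these dogs can be looked for.
CPA3 A_11_P0000029567: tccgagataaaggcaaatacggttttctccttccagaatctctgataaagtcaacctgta
SLC18A2 A_11_P0000030606: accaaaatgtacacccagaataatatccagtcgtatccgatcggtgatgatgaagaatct

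Further basophil and mast cell genes did not share one direction. Of 25 listed, 17 had a tested probe, 8 of them above background on all 22 arrays, and no probe carried the names of the tryptases *TPSAB1*, *TPSB2* and *TPSG1* or of *IL3RA*, the interleukin 3 receptor chain of basophils. The mean of the 17 log2 ratios per array had a lowest, median and highest value of -0.04, 0.06 and 0.29 in ctrl, -0.38, -0.12 and 0.68 before ASIT, and -0.22, -0.04 and 0.40 after ASIT, with dog 6 and dog 3 highest in the last 2 groups. *CPA3* and *SLC18A2* carried the place of dog 3, which was not the highest of its group over the other 15 genes. In each comparison limma called 0 of the 17. Under an unadjusted 0.05 lay 4 in 0 vs. ctrl, 1 higher and 3 lower, then 3 in 6 months vs. ctrl, 1 higher and 2 lower, and 0 in 0 vs. 6 months. Of all tested probes 11.7% (3.81% higher, 7.93% lower), 7.2% (4.08% and 3.12%) and 5.96% did so. The median differences were -0.15, -0.19 and 0.06. *IL4*, a cytokine that basophils and T cells release, was above background on all 22 arrays and differed by -0.51 (SE 0.19, adjusted p = 0.244) in 0 vs. ctrl, past the threshold in the Cy5 channel alone (adjusted p = 0.0454, up to 1 in other settings). *IL1RL1*, the receptor for the cytokine that *IL33* encodes, differed by -0.68 (adjusted p = 0.314) there and by -0.58 (adjusted p = 0.844) in 0 vs. 6 months, against -0.0049 in the Cy5 channel alone and -0.0095 after normexp with loess. *ENPP3*, the basophil surface marker CD203c, was above background on 8, 5 and 3 arrays and differed by -0.75 (adjusted p = 0.385) and -0.74 (adjusted p = 0.681) from ctrl. After normexp with loess these were -0.0018 and -0.04. *IL13*, above background on 6, 1 and 1 arrays, differed by -0.69 (adjusted p = 0.669) in 6 months vs. ctrl and by 0.41 (adjusted p = 0.926) in 0 vs. 6 months, and *CD69* by 0.40 (adjusted p = 0.929) in the latter. In 0 vs. ctrl *CD69* was higher before ASIT, by 0.54, against 0.28 after normexp with loess. In the Cy5 channel alone *IL13* turned to 0.07 in 6 months vs. ctrl, and after normexp with loess it was 0.02 in 0 vs. 6 months. The mast cell chymase gene *CMA1* was above background on all 22 arrays, with a difference of -0.13 (adjusted p = 0.921) in 0 vs. ctrl.

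Markers of the other blood cells were read on the same arrays, where 47.9% of all probes had Cy5 above background on all 22. All 6 monocyte genes, 5 of 6 neutrophil genes, all 5 T cell genes, 2 of 3 cytotoxic genes, all 4 platelet genes and all 4 erythroid genes with a probe had Cy5 above background on all 22 arrays, as did 1 of 4 progenitor genes. No probe carried the names *FPR1*, *CD5*, *GZMB*, *NKG7*, *PF4*, *GP6*, *HBB* or *TAL1*. Their mean log2 ratios per array moved between dogs too. The median differences over the genes of a list, for 0 vs. ctrl, 6 months vs. ctrl and 0 vs. 6 months in this order, were 0.59, 0.95 and -0.30 for erythroid genes, -0.48, -0.10 and -0.26 for platelet genes and 0.14, -0.23 and 0.31 for T cell genes. They were -0.04, -0.32 and 0.18 for B cell, -0.15, -0.03 and -0.21 for monocyte, 0.0024, 0.06 and -0.08 for neutrophil, 0.10, -0.04 and 0.15 for cytotoxic and -0.25, -0.20 and -0.09 for progenitor genes. In 0 vs. ctrl all 6 monocyte, all 4 platelet and all 4 progenitor genes were lower before ASIT and all 4 erythroid genes higher, with 52.4% of all tested probes lower. In 6 months vs. ctrl all 5 T cell and all 4 platelet genes were lower and all 4 erythroid genes higher, with 56.4% of all probes lower. In 0 vs. 6 months all 6 monocyte, all 4 platelet and all 4 progenitor genes were lower before ASIT and all 5 T cell genes higher, with 51.4% lower over all probes. Of these lists limma called 0 genes. Under an unadjusted 0.05 lay 1 platelet gene, lower in 0 vs. ctrl, where 11.7% of all probes did, and 1 T cell gene, higher in 0 vs. 6 months, where 5.96% did. In dog 6 before ASIT the B cell, monocyte and T cell means were the highest of the group, at 0.61, 0.39 and 0.42. In dog 3 after ASIT the B cell mean was the lowest of the group, at -0.92, and the cytotoxic mean the highest, at 0.73. The part of these cells in the results above was not tested.

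Several genes followed the member genes across the 15 dogs, when the mean of each group was removed and the 2 arrays of a cAD patient were averaged. The arrays share the common reference, and the dogs share slides, so these correlations are descriptions. The last value in each bracket is r without the 2 dogs farthest from the mean of their group. The genes most like *FCER1A* were *IRF8* (r = 0.838, rho = 0.818, 0.765), *SLC39A13* (r = 0.805, rho = 0.729, 0.606) and *NAPSA* (r = 0.801, rho = 0.786, 0.744). *IRF8* is a transcription factor of dendritic cells and monocytes. Those most like *MS4A2* were *AKR1A1* (r = 0.895, rho = 0.857, 0.856), *SPTLC2* (r = 0.860, rho = 0.725, 0.714) and *SNX17* (r = 0.859, rho = 0.60, 0.590). *FCER1G* was followed most closely by *LDB1* (r = 0.897, rho = 0.879, 0.862), *PTBP1* (r = 0.845, rho = 0.725, 0.769) and *SERTAD3* (r = 0.837, rho = 0.854, 0.818), and *SYK* by *ANTXR2* (r = 0.846, rho = 0.914, 0.781), *SLC15A4* (r = 0.828, rho = 0.821, 0.789) and *MFAP3L* (r = 0.796, rho = 0.771, 0.745). *CCR3* had the closest companions, *HPX* (r = 0.936, rho = 0.821, 0.907), *UACA* (r = 0.935, rho = 0.850, 0.913) and *OLIG1* (r = 0.926, rho = 0.879, 0.935). For *IL5RA* they were *DACH1* (r = 0.832, rho = 0.846, 0.767), *TES* (r = 0.819, rho = 0.850, 0.804) and *SDR16C5* (r = 0.812, rho = 0.804, 0.723). Each trio was the top of 12676 or 12677 named genes, a choice that by itself favours a high r.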

How the data were processed

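Whole blood RNA of 22 samples was read on 22 two-colour Agilent canine arrays, on 6 slides. The authors deposited scanner files of Feature Extraction (10.10.1.1 in the headers, 10.7.3.1 in the labels) with the log10 ratio of Cy5 to Cy3 after Lowess normalization, raw mean and background intensity per dye, background-subtracted and Lowess-normalized intensity, and other columns with flags of 0 or 1 per spot. The deposited series matrix also holds log10 ratios. It correlated with the scanner ratios at r = 1 on the 14 arrays of cAD patients and at r = 0.711 to 0.844 on the control arrays, so the scanner ratios were used.

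Log10 ratios were turned into log2. Of the 43803 spots on each array, 208 readings with an outlier flag, summed over the 22 arrays, were left out, and spots of a probe were averaged. The 38287 probes whose Cy5 passed the scanner's background flag on 7 or more arrays were fitted in limma 3.58.1 (R 4.3.3, with data.table in version 1.17.8) with the 3 groups as terms, and p values were adjusted by Benjamini-Hochberg over all of them at 0.05. Files were read with Python 3.11.15 and pandas 2.3.3 and plots drawn with matplotlib 3.10.9. The fit did not pair the arrays of a dog. It was tested on simulated data. As a check of pairing, the arrays of a dog correlated at r = -0.0358 (dog 6) to 0.555 (dog 2) over probes, a description with a median of -0.0888 for other pairs.

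The members and gene lists were chosen with earlier results of these data known. Named were all members, set lineage genes and ligands, the genes called and the 3 with the smallest unadjusted p of each list in each comparison. A gene was represented by the probe with Cy5 above background on most arrays, then by the brightest. Alternatives were normexp (offset 50) with loess, the series matrix, the ratio of processed signals, the Cy5 channel alone, no filter, a strict filter, the methods' one-way test, a limit of 75% on the coefficient of variation, slide, scan day or dog as a block, dogs with both arrays on 1 slide, the other probes of a gene, each array left out and, chosen after seeing the data, the arrays of dog 6 before ASIT and dog 3 after ASIT left out together, also for the spread of the groups.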

Additional observations from a re-analysis of the deposited data

Results flagged for a closer look

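Among the member probes, 5 of 48 groups of arrays held an array far from the others. The cut-off used flags about 1 in 20 groups of independent, normally distributed values. The share over all probes was not computed, and some of the groups come from probes of the same gene, so no excess is concluded. *FCER1A*, with 2 of the 5, served to single out the array of dog 3. Both *FCER1A* probes were high in dog 3 after ASIT, A_11_P0000024047 at 3.46 with the next array at 0.91, and A_11_P055911 at 3.12 with the next at 0.31. *FCER2*, at background, was low in dog 4 before ASIT, at -1.08. *KIT* A_11_P053861 was low in dog 1 before ASIT, at -0.55, and high in dog 1 after ASIT, at 0.98, and 11 of its 22 ratios were exactly 0.

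Among the other named genes an array lay far from the others in 14 of 87 groups, with the same nominal rate of about 1 in 20. That share was partly fixed beforehand, since *CPA3* served to single out an array and *SLC18A2* was named after its values were seen. In dog 6 before ASIT *CPA3* was high at 5.95 and *SLC18A2* at 2.39. In dog 3 *BTK* was low before ASIT at -1.48, and after ASIT *IL13* was high at 0.97 and *KITLG* low at -1.48. In dog 4 after ASIT *CCL8* was low at -0.90, *HRH3* at -0.63 and *IL3* at -2.63, and *IL5* was high at 1.29. *SMPD3* was low in dog 7 before ASIT at -0.32 and high in dog 6 after ASIT at 2.16. In ctrl, *AOC1* and *LGALS12* were high in dog 5, at 0.61 and 0.79, and *EMR1* was low in dog 8, at -0.20.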

How the results depend on the processing

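No member probe was called in limma as reported, by the methods' test, or under any other alternative except the Cy5 channel alone, which called 2 in 0 vs. ctrl, 1 over the 3 groups and 1 in 6 months vs. ctrl. Under it 2 results reversed past the threshold in 0 vs. ctrl, *GATA2* at -1.34 (adjusted p = 0.0278) and *HRH2* at -1.57 (adjusted p = 0.0179). The cause was not tested. Of the 42 member differences, the sign changed in 11 in the Cy5 channel alone, in 5 with scan day and 2 with slide as a random block, in 4 after normexp with loess and in 4 without the arrays of dog 6 before ASIT and dog 3 after ASIT. Of the 14 differences 0 vs. 6 months, it changed in 5 for dogs with both arrays on 1 slide and in 4 with the slide as a fixed block. Of the 87 differences of other named genes, the Cy5 channel alone called 14 and changed the sign in 23, and normexp with loess changed it in 17. *PIK3CG*, for one, was -0.46 (adjusted p = 0.0472) in 6 months vs. ctrl in the Cy5 channel alone.

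Of all probes called, 0 vs. ctrl had 16 as reported, 0 after normexp with loess, with the strict filter, by the methods' test and with slide or scan day as a random block, 9 from the series matrix, 52 without the arrays of dog 6 before ASIT and dog 3 after ASIT, and 8092 in the Cy5 channel alone. Of all probes called, 6 months vs. ctrl had 5947 in the Cy5 channel alone. Of all probes called, 0 vs. 6 months had 1 without a filter and 63 without those arrays. Of all probes called, 3 groups together had 7 from the series matrix, 25 without a filter, 16 with the coefficient of variation filter, 54 without those arrays and 7257 in the Cy5 channel alone. The cause was not tested.

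With each array left out in turn, the members called ranged from 0 to 0. Among all probes called, 0 vs. ctrl ranged from 0 to 440, with 440, 135 and 92 without dog 1 before ASIT, dog 2 before ASIT and dog 3 after ASIT, and 0 without control dogs 1, 2, 4, 5 or 8 or dogs 3 or 6 before ASIT. It was 5, 6 and 3 without control dogs 3, 6 and 7, 1 without dog 5 before ASIT, and 10 without dogs 4 or 7 before ASIT or dog 5 after ASIT. Among all probes called, 6 months vs. ctrl ranged from 0 to 2, with 2 without dog 1 before ASIT or dog 2 after ASIT and 1 without dog 1 after ASIT. Among all probes called, 0 vs. 6 months ranged from 0 to 103, with 103, 19 and 94 without the first 3 arrays named above and 1 without dog 6 after ASIT. Among all probes called, 3 groups together ranged from 0 to 193, with 193, 32 and 98 without them, 3 and 1 without dogs 4 and 5 before ASIT, and 3, 2, 6 and 4 without dogs 1, 2, 6 and 7 after ASIT. Signal over background limits *FCER2*, *HDC*, *GATA2* and *KIT*, whose Cy5 was at background on most arrays of cAD patients.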
